A study of Mus musculus with 9 samples.

Results

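This section describes 7 genes that together make up the B cell antigen receptor and its close neighbours: the immunoglobulin heavy chain constant genes Ighm and Ighd, the kappa light chain constant gene Igkc, the receptor's signalling chains Cd79a and Cd79b, the B cell surface protein gene Ms4a1 and the B cell adaptor gene Bank1. They were found by symbol among the 23747 genes of the tables, and all 7 were present in each of the 9 hearts. The genes were chosen from earlier results on these same mice: Ighm in the summed myeloid nuclei, Bank1 in the summed endothelial nuclei and the share of B cell nuclei had all been lower after ischemia and reperfusion than in the sham group. For that reason the contrast of the I/R group with the sham group is described below with its values and no test. Tests of the 7 genes are kept to the Shexiang Baoxin Pill (SBP) contrasts, which share the sham or the I/R mice with it, and the I/R contrast is tested for other genes of the pathway.

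Single-nucleus RNA sequencing had been performed on the hearts of C57BL/6 mice, with 9 mice in 3 equal groups. The mice were supplied at 8 weeks of age, and acclimatisation and gavage came before the operation. In the sham group, 7 days of vehicle gavage were followed by an operation in which the needle was passed but nothing was tied. The I/R group had the same vehicle for 7 days, then 30 min of ligation of the left anterior descending coronary artery and 24 h of reperfusion. SBP mice were gavaged with the pill, named MUSKARDIA in the sample records, for 7 days before the same 30 min of ischemia and 24 h of reperfusion. No mouse carried a transgene, and tissue was taken from below the ligature, so the nuclei represent that piece of the heart. All libraries are of nuclei, so the values count nuclear transcripts, and B cells in blood left inside the vessels cannot be told apart from B cells in the tissue.

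The tables held 4576 to 6418 nuclei per mouse, 49171 in all, with a median of 1540 to 2031 unique molecular identifiers (UMIs, counted RNA molecules) per nucleus. The study reports more cells than this after its quality control. How the missing ones bear on the B-like counts and shares below was not tested. Between any 2 libraries 4 to 14 cell barcodes were shared, 290 barcodes in all. Nuclei were grouped without using any immunoglobulin gene or any of the 7 genes, so that they could not define the nuclei in which they were then counted. One group of 334 nuclei was called B-like, a name given from the same B cell markers that are counted next. Of 14 B cell markers that are not among the 7 genes, 13 were found in over 10% of these nuclei, with Pax5, the B lineage transcription factor, in 63.8%. The T cell receptor chains Cd3e, Cd3d and Cd3g were at 0 there. The same nuclei also held 8.08 UMIs per nucleus of cardiomyocyte marker genes, against 7.25 in the myeloid nuclei described next, and the part of RNA from other cells in either value was not tested.

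As background, a mature B cell that has not met antigen carries its receptor in the IgM and the IgD form, built from the same heavy chain variable region joined to the Ighm or the Ighd constant region by alternative processing of one long transcript. A kappa or a lambda light chain completes the receptor, and Cd79a and Cd79b carry its signal into the cell. Ms4a1, which encodes CD20, sits beside the receptor in the membrane, and Bank1 is an adaptor that links it to intracellular calcium release. The heart of a healthy mouse holds B cells, most of them in its vessels, and resident macrophages marked by Cd163, Lyve1 and Timd4.

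In GRCm38 with the GENCODE vM21 gene models, Ighm lies on the minus strand of chromosome 12 (113418558 to 113422730), with Ighd next to it on the same strand (113406604 to 113416324). Igkc lies on the plus strand of chromosome 6 (70726435 to 70726966), wholly inside the gene model Gm30211 on the same strand, so the overlap can change how Igkc reads are counted. Gm30211 itself was found in 30.2% of B-like nuclei, and how far the overlap changes the Igkc values below was not tested. Gm30211 was not among the genes left out of the grouping of nuclei. Cd79a lies on chromosome 7 (24897381 to 24902197, plus strand) and Cd79b on chromosome 11 (106311341 to 106314762, minus strand), with no overlapping model. Ms4a1 on chromosome 19 (11249675 to 11266241, minus strand) overlaps the antisense model 4930526L06Rik, and Bank1 on chromosome 3 (136053363 to 136326066, minus strand) overlaps the antisense model Gm31243. Which strand setting was used in counting is not given in the sources used here.

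RefSeq promoter windows, from 250 bases before to 50 bases after the transcription start in GRCm38.p6, were held for 2 of the 7 genes, Cd79a and Bank1. They were searched on both strands for GGAAGT, an ETS family core that PU.1 binds, for CCCNNGGG, the core bound by EBF1, and for ATTTGCAT, the octamer of immunoglobulin promoters. They are shown because B-like nuclei held 75.3% of the Cd79a UMIs and 18.6% of the Bank1 UMIs. Each stretch holds 30 bases, written 5′ to 3′ on the gene's own strand, with the matched letters in capitals.
Cd79a, GGAAGT beginning 54 bases before the start, chr7:24897431-24897460, plus strand: cacggctgaacaGGAAGTgaggcggagttt
Bank1, GGAAGT read on the other strand as ACTTCC, beginning 62 bases before the start, chr3:136326111-136326140, minus strand: ctgagcaatttcACTTCCcccagcaaggcc
Bank1, CCCNNGGG beginning 21 bases before the start, chr3:136326069-136326098, minus strand: tgcggcctgagCCCCTGGGctgcatttccg
Neither window held ATTTGCAT. Of 32851 promoter windows of the same length, 23.8% held GGAAGT, 13.7% held CCCNNGGG and 1.74% held ATTTGCAT, so the first is a common match. The GENCODE model of Cd79a begins farther upstream than the RefSeq start, so its stretch lies inside that model.

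The 7 genes fell into 2 patterns. Ighd, Igkc, Cd79a, Cd79b and Ms4a1 were found mostly in B-like nuclei, which are 334 of the 49086 nuclei kept after doublet removal. Ighm and Bank1 were high in B-like nuclei and also present in a group of 4009 myeloid nuclei led by Lilra5, Cd163 and Cbr2. B-like nuclei held 81.2% of all 655 Ighd UMIs, 74.7% of 273 Igkc UMIs, 75.3% of 190 Cd79a UMIs, 75.7% of 152 Cd79b UMIs and 67.3% of 220 Ms4a1 UMIs. Of 1544 Ighm UMIs they held 28.7%, and of 6854 Bank1 UMIs 18.6%. The Cd163-led nuclei held 42.6% of the Ighm UMIs and 54.8% of the Bank1 UMIs. Whereas Ighd sits beside Ighm in the genome and in the transcript, only 9.01% of its UMIs were in the Cd163-led nuclei.

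**Figure D1:**
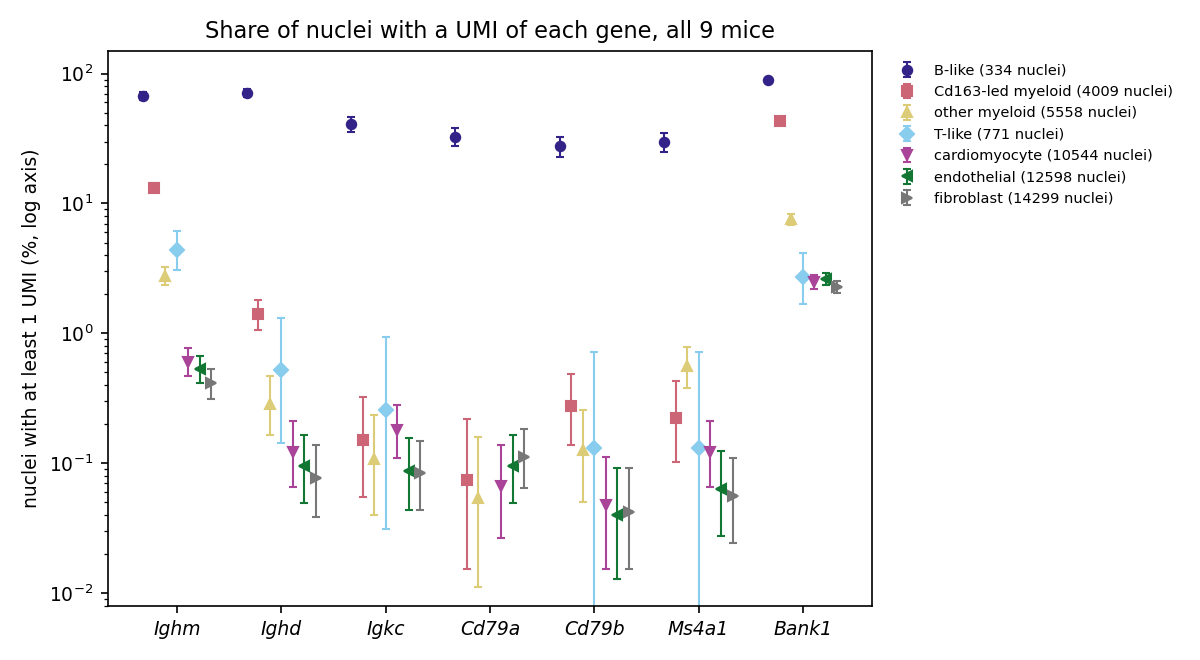
Share of nuclei with at least 1 UMI of each of the 7 genes (vertical axis, percent, log scale) in each population of nuclei over all 9 mice, with exact 95% binomial intervals and no point where the count was 0. All 7 genes stand highest in the B-like nuclei, and only Bank1 and Ighm exceed 10% in the Cd163-led myeloid nuclei.

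The heavy chain genes come first. Ighm was found in 67.7% of B-like nuclei (226 of 334, exact 95% interval 62.4 to 72.7%), with 133 UMIs per 100 nuclei, and in 13.2% of Cd163-led nuclei (530 of 4009), with 16.4 UMIs per 100 nuclei. It was found in 4.41% of T-like nuclei, 2.75% of the other myeloid nuclei, and 0.607%, 0.532% and 0.413% of cardiomyocyte, endothelial and fibroblast nuclei. The order of the Ighm shares was thus B-like, Cd163-led, T-like, other myeloid and then the 3 large types of the heart wall. Neighbours from T-like downwards had overlapping intervals, except that the other myeloid nuclei stood above the heart wall types. These intervals, like all those of counts, shares and proportions below, cover counting error only. The intervals of fitted differences come from the spread between mice.

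Depth differed between the populations, with a median of 953.5 UMIs in a B-like nucleus, 1593 in a Cd163-led nucleus, 4432 in a cardiomyocyte, 1255 in an endothelial and 1795 in a fibroblast nucleus. After each nucleus was thinned to 1000 UMIs, which left 150 of the 334 B-like and 4000 of the 4009 Cd163-led nuclei, Ighm was found in 60.7% of B-like and 8.88% of Cd163-led nuclei. In thinned cardiomyocyte, endothelial and fibroblast nuclei the share was 0.161%, 0.385% and 0.156%. At equal depth, too, the B-like nuclei stood highest, the Cd163-led nuclei next and the heart wall types lowest.

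Ighd was found in 71.3% of B-like nuclei, with 159 UMIs per 100 nuclei. It was found in 1.40% of Cd163-led nuclei and in at most 0.519% of the nuclei of any other large population. In B-like nuclei 162 of 334 held both heavy chain transcripts, 64 held Ighm alone, 76 held Ighd alone and 32 held neither. Ighd was found as often in B-like nuclei with an Ighm UMI (71.7%) as in those without one (70.4%, exact 95% interval 60.8 to 78.8%).

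The switched isotypes had few UMIs. Over all 9 mice there were 11 UMIs of Igha, 7 of Ighg2c and 5 of Ighg2b, and of these 0, 1 and 0 were in B-like nuclei. Jchain, which encodes the joining chain of secreted IgM and IgA, had 44 UMIs and Mzb1, a chaperone of antibody-secreting cells, had 5, all of them outside the B-like nuclei. For Igha, Ighg2b and Jchain, 0 of 334 nuclei allows a share of up to 0.898%, which limits nuclei with a UMI at a median of 953.5 UMIs per nucleus and not cells expressing the gene.

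Of the light chains, Igkc was found in 41.0% of B-like nuclei (61.1 UMIs per 100 nuclei) and in 0.150% of Cd163-led nuclei. Its share in cardiomyocyte nuclei, 0.180%, lay inside the interval of that value. In the B-like nuclei there were 289 UMIs of the lambda constant genes Iglc1, Iglc2 and Iglc3 together and 204 of Igkc, counts that are not per length and that the Gm30211 overlap touches. Igkc without a lambda transcript was seen in 67 nuclei, lambda without Igkc in 102, both in 70 and neither in 95. Lambda UMIs outnumbered Igkc UMIs in 5 of the 9 mice, with 93 against 53 in sham replicate 2 and 77 against 45 in sham replicate 3.

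Of the signalling chains, Cd79a was found in 32.6% of B-like nuclei (42.8 UMIs per 100 nuclei) and Cd79b in 27.5% (34.4 per 100), and at least one of them in 158 of 334. In Cd163-led nuclei the shares were 0.0748% and 0.274%. Cd79a was at 0 in all 771 T-like nuclei, which allows a share of up to 0.389% of nuclei with a UMI at their depth. Ms4a1 was found in 29.6% of B-like nuclei (44.3 UMIs per 100 nuclei) and in 0.224% of Cd163-led nuclei, but in 0.558% of the other myeloid nuclei, its highest share outside the B-like nuclei. Those other myeloid nuclei held 14.5% of all Ms4a1 UMIs, and 53.1% of the 49 found in the I/R mice.

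Bank1, the adaptor, was found in 89.5% of B-like nuclei (299 of 334, exact 95% interval 85.7 to 92.6%) and in 43.1% of Cd163-led nuclei (1727 of 4009), with 381 and 93.7 UMIs per 100 nuclei. In the other myeloid nuclei it was found in 7.56%, in T-like nuclei in 2.72%, and in cardiomyocyte, endothelial and fibroblast nuclei in 2.50%, 2.61% and 2.29%. At 1000 UMIs per nucleus the shares were 91.3% in B-like, 32.8% in Cd163-led, and 0.693%, 1.67% and 1.33% in the 3 heart wall types. Single nuclei reached 20 Bank1 UMIs among the B-like and 24 among the Cd163-led nuclei, and 516 Cd163-led nuclei held 3 or more. With other ways of picking nuclei, the UMIs per 100 B-like nuclei ran from 139 to 398 for Bank1 and from 46.4 to 139 for Ighm.

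Within the myeloid nuclei the Bank1 signal followed the clusters unevenly. A cycling cluster of 287 nuclei led by Neil3 and Knl1 held Bank1 in 32.1% and Ighm in 9.76% of its nuclei. A cluster of 3000 nuclei led by Gpnmb, which had 3 to 5 nuclei in each sham mouse and 140 or more in each injured mouse, held Bank1 in 6.4% and Ighm in 2.33%. A Flt3-led cluster of 348 nuclei held Ighm in 8.91% and Bank1 in 6.61%.

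The Cd163-led nuclei were described by the markers of B cells and of resident macrophages. Mrc1 and Ccr2 were in the marker list that named these nuclei myeloid, and the group was picked for Cd163 among its leading genes. The shares of these 3 genes are therefore no independent check of the name. Mrc1 was found in 92.3% of them, Cd163 in 57.0%, Lyve1 in 17.4%, Timd4 in 11.6% and the monocyte receptor gene Ccr2 in 6.56%. Pax5 was found in 0.299% of them, and of the 14 B markers 2 exceeded 10% and 2 were at 0. Summed over the list, B markers came to 0.44 UMIs per nucleus, against 10.9 in B-like nuclei. At least 3 of the 7 genes were found together in 79.6% of B-like nuclei, in 9 of the 4009 Cd163-led nuclei (0.224%) and in 0.0179% of all others.

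The other B cell genes were counted in the same nuclei. Of the 1727 Cd163-led nuclei with Bank1, 0.695% also held Igkc, Cd79a, Cd79b or Ms4a1, and of the 2282 without Bank1, 0.745% did. Cd163 itself was found in 60.4% of the first and 54.4% of the second. The Bank1-positive nuclei were slightly deeper, with a median of 1681 UMIs against 1540. Of the 530 Cd163-led nuclei with Ighm, 0.943% held one of those 4 genes, against 0.690% of those without. Ighd was found in 16 of these 530 (3.02%, exact 95% interval 1.74 to 4.86%) and in 40 of the 3479 without Ighm (1.15%, 0.823 to 1.56%), and in 1.39% of the nuclei with Bank1 against 1.40% of those without. In B-like nuclei with Bank1 the share with one of the 4 genes was 72.6%.

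The proportions between the genes were also set side by side. Ighd made up 54.6% of the Ighm and Ighd UMIs in B-like nuclei (exact 95% interval 51.4 to 57.7%, and 45.7 to 59.4% across the 9 mice). In Cd163-led nuclei it made up 8.24% (6.33 to 10.5%, and 0 to 15.2% across mice). In cardiomyocyte, endothelial and fibroblast nuclei together it made up 14.9% (10.7 to 20.1%, and 7.41 to 20.7% in the 8 mice with any such UMI). None of the 9 mice had a Cd163-led proportion inside the range of the B-like nuclei, and none of those 8 had a heart wall one. The 0 of I/R replicate 2 in Cd163-led nuclei rested on 3 Ighm UMIs (interval 0 to 70.8%). The heart wall value of I/R replicate 3, 18.2%, rested on 9 Ighm and 2 Ighd UMIs (2.28 to 51.8%). Both intervals reach the range of the B-like nuclei.

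The second proportion set the 4 genes Igkc, Cd79a, Cd79b and Ms4a1 against Bank1. They made up 32.4% of the UMIs of all 5 genes in B-like nuclei (30.3 to 34.5%), 0.766% in Cd163-led nuclei (0.514 to 1.10%) and 11.6% in the heart wall types (9.86 to 13.6%). Across mice the ranges were 13.2 to 43.1%, 0.195 to 1.31% and 5.41 to 41.5%. In B-like nuclei the proportion was 43.1, 37.3 and 34.5% in the sham mice, 26.3, 13.2 and 30.3% in the I/R mice and 31.2, 29.9 and 21.1% in the SBP mice, so every sham mouse lay above every injured mouse. The heart wall value thus lay between the other 2, and its highest mouse, I/R replicate 2, rested on 17 UMIs of the 4 genes, of which 9 were Igkc in 1 fibroblast nucleus, and 24 of Bank1. How much of the Ighm and Bank1 signal in any population is free RNA was not tested.

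**Figure D2:**
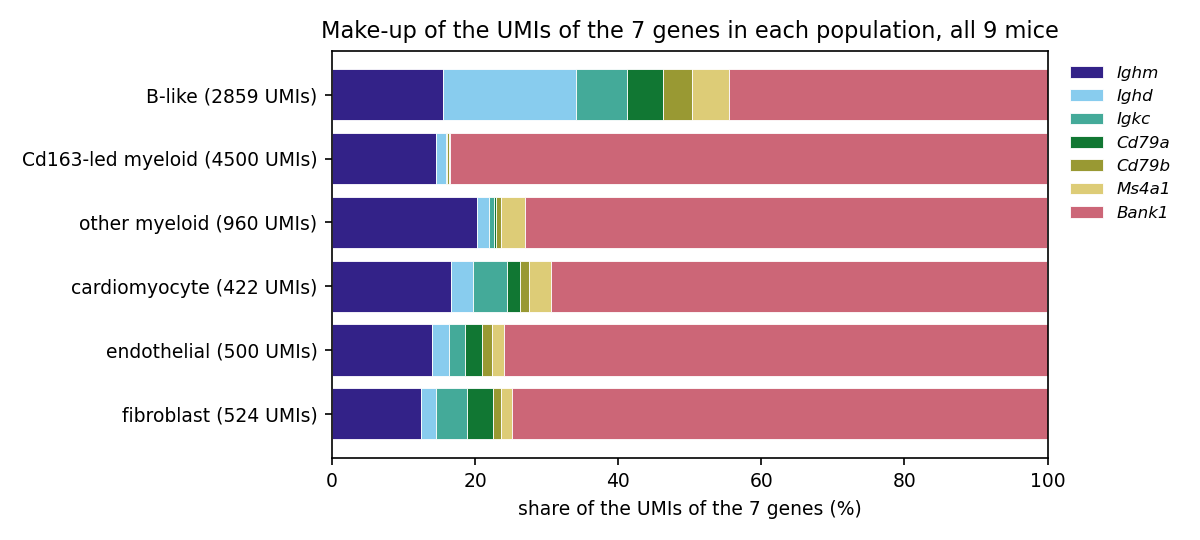
Make-up of the UMIs of the 7 genes in each population of nuclei over all 9 mice (horizontal axis, percent of the 7 genes' UMIs, each bar 1 population). Bank1 takes 44.6% in the B-like nuclei and 83.4% in the Cd163-led nuclei, where Ighm takes most of the rest.

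Levels were next followed by mouse. B-like nuclei numbered 39, 84 and 74 in the sham mice, 35, 7 and 12 in the I/R mice and 21, 34 and 28 in the SBP mice. As a share of all nuclei these were 0.855%, 1.42% and 1.34%, then 0.546%, 0.135% and 0.212%, then 0.415%, 0.599% and 0.547%. Every I/R and SBP mouse lay below every sham mouse, while the I/R and SBP mice overlapped. A lower share of nuclei can come from fewer B cells or from more cells of other kinds, and the other myeloid nuclei numbered 35 to 64 in the sham mice and 338 to 1952 in the injured mice.

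Within the B-like nuclei the ranges of UMIs per nucleus of the 7 genes overlapped between sham and SBP mice. Bank1 came to 200, 379 and 365 UMIs per 100 B-like nuclei in the sham mice, 440, 471 and 383 in the I/R mice and 305, 518 and 482 in the SBP mice. The means were 315 ± 99.6, 431 ± 44.6 and 435 ± 114 (SD, n = 3 each). Every I/R mouse lay above every sham mouse, where Bank1 in the other types described below lay lower in the I/R group. The gap was narrow: I/R replicate 3 had 383 from 12 nuclei (exact 95% interval 281 to 511), next to 379 in sham replicate 2. Sham and SBP mice overlapped. As a part of all UMIs of these nuclei, Bank1 came to 2310, 3460 and 2830 CPM (UMIs scaled to a common library total) in the sham mice. It came to 4490, 5240 and 3630 in the I/R mice and 3490, 4660 and 4720 in the SBP mice. All injured mice lay above all sham mice, but SBP replicate 1 (21 nuclei) and I/R replicate 3 (12 nuclei) stood close to sham replicate 2. In UMIs per 100 B-like nuclei, the Ighm values were as follows. Ighm came to 121, 123 and 131 in the sham mice, 117, 143 and 217 in the I/R mice and 100, 159 and 157 in the SBP mice, with overlap between all groups.

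The other receptor genes are given by their ranges. Ighd ran from 128 to 182 per 100 B-like nuclei in the sham mice, 157 to 200 in the I/R mice and 132 to 165 in the SBP mice. Igkc ran from 60.8 to 74.4, from 28.6 to 75 and from 53.6 to 61.8. Cd79a ran from 30.8 to 58.3 in the sham, 40.0 to 50 in the I/R and 14.3 to 58.8 in the SBP mice. Cd79b and Ms4a1 were both at 0 in I/R replicate 2, which had only 7 B-like nuclei, and otherwise lay at 17.9 to 50 and 16.7 to 55.9.

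Only the SBP and sham groups had at least 2 mice with 20 or more B-like nuclei, so the test within B-like nuclei was between them (limma on summed UMIs, 718 genes tested, of which 1.25% were called). A call was an adjusted p of at most 0.05 with a log2 difference beyond 0.25. None of the 7 genes was called. Of all 718 genes 89 were at an unadjusted p under 0.05, and of the 7 genes 1 was. That was Bank1, higher in the SBP mice by 0.52 (SE 0.20, 95% interval 0.07 to 0.96, limma adjusted p = 0.325). Its direction turned with cell types from marker scores, at -0.67, and in the other settings it lay between 0.18 and 0.63. For Cd79a the difference was -0.64 (SE 0.45, interval -1.61 to 0.33), and for the other 5 genes it lay between -0.17 and 0.15. With cell types from marker scores Cd79a was at -1.76 and these 5 genes lay between -1.46 and -1.05, none of them called, and without single mice Cd79a ran from -1.14 to -0.33. These intervals do not show that the levels were alike, since a difference of -1.61 in Cd79a or of 0.96 in Bank1 lies at their edge.

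In the Cd163-led nuclei Bank1 split the I/R mice. There were 101, 117 and 111 Bank1 UMIs per 100 Cd163-led nuclei in the sham mice, 115, 24.2 and 31.2 in the I/R mice and 71.5, 113 and 153 in the SBP mice. I/R replicate 1 stood at the sham level and the other two I/R mice stood below all 7 remaining mice. Ighm came to 18.2, 30.5 and 24.7 per 100 nuclei in the sham mice, 16.0, 0.765 and 6.20 in the I/R mice and 9.18, 12.7 and 14.4 in the SBP mice. All 3 sham mice were above all 6 injured mice for Ighm, and I/R replicate 1 was again the highest of the I/R group. Ighd was too sparse there to compare, at 42, 11 and 6 UMIs in the 3 groups.

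**Figure D3:**
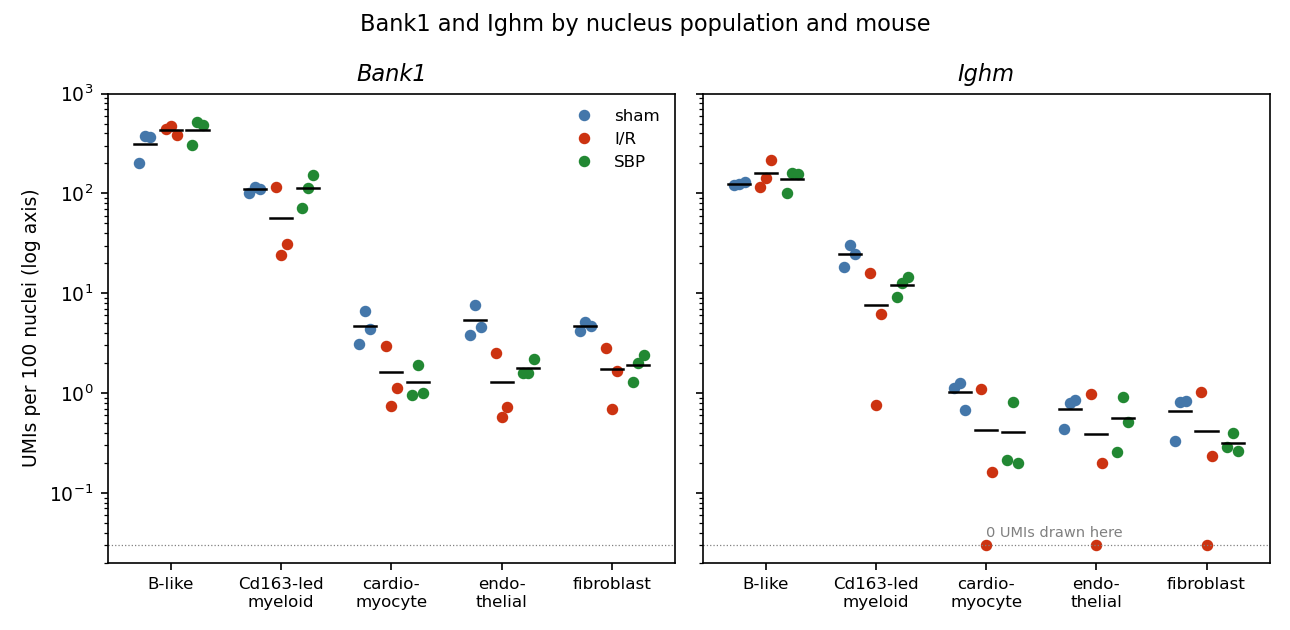
Bank1 and Ighm UMIs per 100 nuclei (vertical axes, log scale) by mouse in the B-like, Cd163-led and heart wall populations, with each point 1 mouse, each bar the mean of a group and mice at 0 UMIs drawn on the dotted line. In the Cd163-led nuclei the Bank1 points of I/R replicates 2 and 3 (24.2 and 31.2) lie below those of every other mouse, and I/R replicate 1 (115) lies among the sham mice.

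The heart wall types held Bank1 at lower levels. In endothelial nuclei it came to 3.80, 7.70 and 4.60 UMIs per 100 nuclei in the sham mice, 2.53, 0.576 and 0.733 in the I/R mice and 1.59, 1.59 and 2.19 in the SBP mice. In fibroblasts it came to 4.21, 5.14 and 4.70, then 2.86, 0.690 and 1.68, then 1.28, 2.00 and 2.43. The 1.68 of I/R replicate 3 was 29 UMIs in 8 of 1725 nuclei. In cardiomyocytes it came to 3.09, 6.60 and 4.36, then 2.97, 0.741 and 1.12, then 0.955, 1.92 and 1.00. In these 3 types all sham mice were above all injured mice, and I/R replicate 1 was the highest of the I/R mice. That mouse also had the most B-like nuclei of the I/R group (35, against 7 and 12) and the most Bank1 in its Cd163-led nuclei, and the part of either in the heart wall values was not tested.

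For the fits, UMIs were summed over all nuclei of a type in a mouse and put on the log2 scale of CPM, which is UMIs scaled to a common library total, plus 1. In such sums fewer cells of a kind and less RNA per cell cannot be told apart, and the myeloid sums show it: Cd163-led nuclei were 90.7 to 94.4% of the myeloid nuclei in the sham mice, 15.2 to 48.4% in the I/R mice and 24.1 to 48.5% in the SBP mice. Of 28 pairs of the 7 genes with the 4 large types (cardiomyocyte, endothelial, fibroblast and myeloid), 9 passed the filter on low counts. They were Ighm and Bank1 in all 4 types and Ighd in the myeloid nuclei. Igkc, Cd79a, Cd79b and Ms4a1 passed in none of them. Ighd in the myeloid nuclei passed only through the 3 sham mice (at least 7.09 CPM there, reached by 0 I/R and 0 SBP mice), so its lower values in the other groups are fixed by the filter. Ighm in fibroblasts and in cardiomyocytes passed through 2 sham mice and 1 I/R mouse, and Bank1 in fibroblasts and in myeloid nuclei was over the limit in all 9 mice.

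The I/R group lay below the sham group for the 9 pairs that passed, a direction that the choice of the genes and the filter fix in part. In the same contrast 7.42% of all 48987 gene and type pairs were called, 4.02% higher and 3.39% lower. Ighm in myeloid nuclei went from 113, 191 and 139 CPM in the sham mice to 32.8, 1.97 and 16.2 in the I/R mice, a log2 difference of -3.60 (SE 0.74), or -2.61 without I/R replicate 2. Bank1 there went from 647, 700 and 618 CPM to 143, 45.3 and 85.4 (log2 difference -2.97, SE 0.40). Ighd went from 10.4, 22.9 and 10.0 CPM to 3.51, 0 and 0.438 (-2.96, SE 0.62). Groups did not overlap for any of the 3 genes.

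Taking the Cd163-led nuclei alone removes the change in their share of the myeloid nuclei, and a change of make-up within them was not tested. There the Ighm difference was -2.67 (SE 0.97) and the Bank1 difference -1.61 (SE 0.61). Both were smaller than in all myeloid nuclei, and each moved with single mice. When single mice were left out, Bank1 ran from -2.38 (without I/R replicate 1) to -1.11. Ighm ran from -3.66 to -1.48 (without I/R replicate 2). In the heart wall the Bank1 difference was -2.25 (SE 0.45) in endothelial nuclei, and -2.85 to -1.89 without single mice. It was -1.96 (SE 0.36, or -2.47 with at most 1 UMI of a gene per nucleus) in fibroblast nuclei. In cardiomyocyte nuclei it was -1.55 (SE 0.38). For Ighm the difference was -1.13 in endothelial, -1.09 in fibroblast and -0.98 in cardiomyocyte nuclei.

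Whether the pill changed these levels was tested against the I/R group. None of the 9 pairs was called, and across all gene and type pairs 0.0% were called (0 of 48987 by limma, with 1791 at an unadjusted p under 0.05). Bank1 in myeloid nuclei stood at 237, 166 and 403 CPM in the SBP mice, all above the 143, 45.3 and 85.4 of the I/R mice. Its log2 difference was 1.61 (SE 0.40, 95% interval 0.72 to 2.50), the only one at an unadjusted p under 0.05, with a limma adjusted p of 0.909. Ighm in myeloid nuclei stood at 24.5, 26.8 and 43.3 CPM in the SBP mice, inside the range of the I/R mice except for the highest mouse. Its difference was 1.41 (SE 0.74, limma adjusted p = 1.0), and without single mice it ran from 0.42 (without I/R replicate 2) to 2.15.

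In the Cd163-led nuclei Bank1 was 389, 583 and 762 CPM in the SBP mice against 650, 107 and 157 in the I/R mice and 683, 757 and 652 in the sham mice. The SBP and I/R mice overlapped through I/R replicate 1. The log2 difference between SBP and I/R was 1.34 (SE 0.61, interval -0.09 to 2.76, limma adjusted p = 0.853), and among the 9135 genes tested there 0.0% were called. Without I/R replicate 1 Bank1 was called, with a limma adjusted p of 0.000593, and this was the one setting of 21 in which it was. For Ighm the difference was 1.43 (SE 0.97, limma adjusted p = 0.902), or 0.24 without I/R replicate 2 and 2.41 without I/R replicate 1, and neither gene was at an unadjusted p under 0.05.

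Compared with the sham group, 2 of the 9 pairs were called, both lower in the SBP group, where 4.57% of all pairs were called. One of them is Ighd, whose filter was passed by sham mice alone, so its direction is fixed by the filter. The other is Bank1 in fibroblasts, where 693 of all 13174 genes tested were called. Ighd in myeloid nuclei stood at 2.37, 1.18 and 3.55 CPM in the SBP mice, all below the lowest sham mouse at 10.0. Its log2 difference was -2.15 (SE 0.62, limma adjusted p = 0.041), and -2.12 with no filter other than 1 UMI. Bank1 in fibroblasts stood at 5.88, 6.92 and 11.7 CPM against 26.8, 28.4 and 20.7 in the sham mice, a difference of -1.59 (SE 0.36, limma adjusted p = 0.0262).

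Bank1 was not called without any one sham mouse, without SBP replicate 1 or without SBP replicate 2. Ighd was not called without any one SBP mouse, and without any one sham mouse it did not pass the filter. Over all settings that tested them, the Bank1 difference in fibroblasts stayed between -1.84 and -1.10 and the Ighd difference between -2.47 and -1.87. Of the pairs that were not called, Bank1 in myeloid nuclei differed by -1.37 (SE 0.40, limma adjusted p = 0.0544), in cardiomyocytes by -1.62 (adjusted p = 0.10) and in endothelial nuclei by -1.54 (adjusted p = 0.121), and Ighm in myeloid nuclei by -2.19 (adjusted p = 0.0895). In the Cd163-led nuclei the Bank1 difference from sham was -0.27, with an interval of -1.70 to 1.16 (limma adjusted p = 0.902), and the Ighm difference was -1.24 (SE 0.97, adjusted p = 0.65). There 1.18% of the genes tested were called. The sham mice also enter the contrast by which the genes were chosen, so the lower values in the SBP group are not independent of it. Nothing in the labels ties the mice to separate litters or days, and the p-values measure the spread between these mice.

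**Figure D4:**
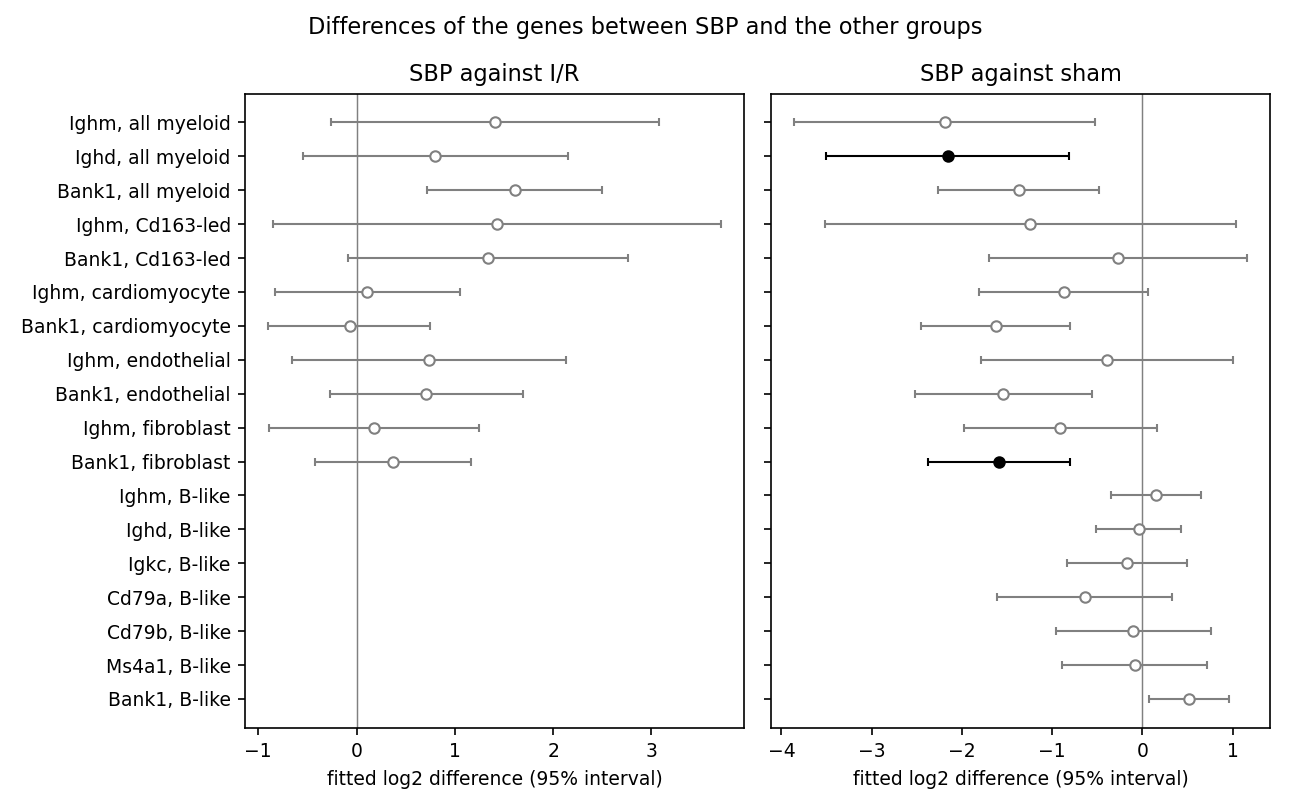
Fitted log2 differences of the 7 genes for SBP minus I/R and for SBP minus sham (horizontal axis) by population, with 95% intervals from limma and called differences filled. The intervals of SBP against I/R cross 0 for all tested pairs but Bank1 in myeloid nuclei. The 2 called differences from sham are Bank1 in fibroblast nuclei and Ighd in myeloid nuclei, which passed the filter through sham mice alone.

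Other genes of the same pathways were listed with earlier results of these mice known, none of them among the 7. The p-values and shares called of these lists are therefore not independent of that choice. Of 49 tested pairs of the B cell receptor signalling list (19 genes, among them Syk, Btk, Blnk and Cd22) with the 4 types, 5 rose and 5 fell in the I/R group against the sham group, with a median log2 difference of 0.23, where the median of all genes was -0.01 to 0.02 in the 4 types. That was 10 of 49, against the 7.42% of all pairs. Fcgr2b, the inhibitory Fc receptor, rose in fibroblasts by 1.34 (SE 0.26, limma adjusted p = 0.00781), from 7.66, 4.5 and 7.30 CPM to 20.3, 20.8 and 14.4. Syk, a kinase downstream of the receptor, rose in myeloid nuclei by 0.80 (SE 0.18, limma adjusted p = 0.00986). Vav1, an exchange factor of blood cells, rose in endothelial nuclei by 1.44 (SE 0.30, limma adjusted p = 0.0278), from 5.69, 7.11 and 5.17 CPM to 20.2, 20.2 and 12.9. Most of these genes also act in myeloid cells. The other myeloid nuclei numbered 35 to 64 in the sham mice and 534 to 1952 in the I/R mice. How much of the endothelial and fibroblast values of this and the next lists is free RNA was not tested.

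Of the genes that fell, Cd40, the receptor for T cell help, went in fibroblasts from 48.5, 32.9 and 41.4 CPM to 16.0, 9.69 and 8.6 (log2 difference -1.84, SE 0.25, limma adjusted p = 0.0011). The linker gene Blnk went in fibroblasts from 78.8, 103 and 107 CPM to 63.4, 41.6 and 43.0 (-1.02, SE 0.18, limma adjusted p = 0.00498). Cd72, an inhibitory co-receptor, went in myeloid nuclei from 57.2, 86.1 and 75.4 CPM to 35.5, 17.4 and 10.1 (-1.90, SE 0.35, limma adjusted p = 0.00421). Against the sham group, the SBP group showed 1 rise and 4 falls on this list, 5 of 49 against the 4.57% of all pairs, and against the I/R group it showed none. The count moved with single mice, being 6 without sham replicate 1 and 16 without I/R replicate 3.

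None of the 28 tested pairs of the B lineage transcription factors (11 genes, among them Pax5, Ebf1 and Irf8) was called by limma in the I/R group against the sham group. Their median difference was -0.12, and 7 of the 28 were at an unadjusted p under 0.05, as were 10618 of all 48987 pairs. Leaving out I/R replicate 1 gave 3 calls, SBP replicate 1 gave 2, and I/R replicate 2 or 3 gave 1 each. Of 19 tested pairs of other B cell genes, 3 rose and 5 fell (median -0.45), which is 8 of 19 against the 7.42% of all pairs. In myeloid nuclei Cd37, a leukocyte tetraspanin, rose by 0.97 (SE 0.17, limma adjusted p = 0.00285). Cd74, the invariant chain of antigen presentation, fell there by 2.78 on the log2 scale (SE 0.41, limma adjusted p = 0.00226), from 501, 524 and 529 CPM to 166, 39.7 and 61.8. Ralgps2 fell there by 0.68 (SE 0.18, limma adjusted p = 0.022). Btla, an inhibitory receptor of lymphocytes, was lower in fibroblasts by 1.33 (SE 0.38). Only its sham mice, at 4.68, 4.84 and 3.35 CPM, reached the filter limit of 2.67 CPM, so that direction is fixed by the filter. The count of 8 includes Btla. The count of 8 went down to 3 without I/R replicate 2, and to 4 without any one sham mouse, I/R replicate 3 or SBP replicate 3.

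Of the other immunoglobulin and plasma cell genes, 9 pairs could be tested, and 2 rose and 1 fell (median 0.31), which is 3 of 9 against the 7.42% of all pairs. Sdc1, a syndecan of plasma cells and of injured tissue, rose in fibroblasts from 0.852, 1.73 and 1.83 CPM to 7.75, 15.1 and 5.58. Its log2 difference was 1.97 (SE 0.40, limma adjusted p = 0.00937). No sham mouse reached the filter limit of 2.67 CPM for Sdc1, so the filter, passed by injured mice alone, fixes that direction in part. Xbp1, a factor of the secretory pathway, rose in myeloid nuclei by 0.72 (SE 0.21, limma adjusted p = 0.0337). Irf4, a factor of plasma cells and of some macrophages, went there from 34.7, 33.0 and 19.4 CPM to 5.78, 0.984 and 3.50 (-2.89, SE 0.43, limma adjusted p = 0.00109). No I/R mouse reached the filter limit of 7.09 CPM for Irf4, so the filter, passed by sham and SBP mice alone, fixes that direction in part. None of the 4 lists had a limma call in the SBP group against the I/R group, where 8, 3, 2 and 1 pairs were at an unadjusted p under 0.05. Of all 48987 pairs in that contrast, 1791 were. In the Cd163-led nuclei alone, where 14, 6, 3 and 3 genes of the 4 lists could be tested, limma called 1 in the I/R group against the sham group, where 1.26% of the genes tested were called, and that was Cd74.

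The genes whose pattern was most like that of the 7 were named by correlation. Over 53 sums of nuclei by type and mouse, the mean log2 level of the 7 genes went most closely with H2-Ob (Pearson r = 0.966), Siglecg (0.960), 2010309G21Rik (0.959), Cd22 (0.959), Pax5 (0.955), Iglc2 (0.955), H2-DMb2 (0.955) and Gm43388 (0.952). The sums of a mouse share a library, and sums of the same type share its depth, so these values are descriptions. Of the 7 genes, Ighd (0.979) and Cd79b (0.978) followed the mean of the 7 most closely, and Ighm (0.901) and Bank1 (0.890) least. Of the 8 similar genes, H2-DMb2 had the smallest part of its UMIs in B-like nuclei (29.3%) and Gm43388 the largest (93.7%).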

How the data were processed

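The deposited values, made by the authors from single-nucleus libraries of 9 hearts, are natural log values: ln of 1 plus UMIs per 10000 UMIs of a nucleus. The submitters' processing notes name Cell Ranger 4.0, STAR, Seurat 3.2.0 and GRCm38, whereas the study's methods name later versions of Cell Ranger and Seurat. Those methods describe down-sampling, removal of nuclei with few genes or many mitochondrial reads, and removal of mitochondrial genes. UMIs were recovered from the smallest value of each nucleus, and 99.99954 to 99.99992% of the values of a table came out whole within 0.1. No deposited column was left without a sample (0 unmapped). The 7 genes, the 4 gene lists and the markers were chosen with earlier results of these data known.

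Nuclei were clustered with scanpy 1.11.5 without the 7 genes and the immunoglobulin genes (16 genes), giving 16 clusters, of which 1 (854 nuclei) stayed unnamed. The first grouping had placed B-like and dendritic nuclei in 1 cluster, so the 10825 immune nuclei were clustered again, a step chosen after the data were seen. The doublet caller marked 85 nuclei (0.173%), which is too few for it to have worked. They were removed, and 2168 at the expected rate in an alternative.

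UMIs were summed per mouse and type (at least 20 nuclei) and fitted in limma 3.58.1 (R 4.3.3), with trend and robust variance, on log2(CPM + 1) with TMM factors over all 9 mice. A count model was not used, because the deposited unit is a log value. Genes entered a test with 15 or more UMIs in all and, in 3 mice, a CPM equal to 10 UMIs of the median library. Calls needed p-values no higher than 0.05 after Benjamini-Hochberg adjustment and a log2 difference beyond 0.25 either way. A fold change on this scale understates that of low genes. Genes named are the 7, the 3 called genes of each list with the smallest adjusted p in each direction, and the 8 most correlated with the mean of the 7, plus clusters' leading genes and markers, and values of some genes under this rule are not reported here. The fit was tested on simulated data. Intervals of counts and shares are exact 95% ones, and 0 counts allow up to 3.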

Additional observations from a re-analysis of the deposited data

How the results depend on the processing

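Of 799 recomputed values 12 reversed, all of them differences within B-like nuclei between SBP and sham that were not called, and 717 kept their call or stayed near the reported value. No pair of the 7 genes with the 4 large types was called between SBP and I/R under any alternative (0 to 0 without single mice), and none within the B-like nuclei. There, with types from marker scores, Bank1 turned to -0.67 and Ighm to -1.05, and Ighd moved from -0.04 to -1.17, Igkc from -0.17 to -1.35, Cd79a from -0.64 to -1.76, Cd79b from -0.10 to -1.46 and Ms4a1 from -0.08 to -1.23. Ms4a1 was -0.93 with doublets at the expected rate removed, and Ighm was -0.04 with no filter other than 1 UMI. Ighd was 0.03 with total scaling, 0.01 at a Leiden resolution of 0.6 and 0.02 with at most 1 UMI of a gene per nucleus. Without single mice these differences ranged from -0.03 to 0.28 for Ighm, -0.15 to 0.07 for Ighd, -0.45 to 0.07 for Igkc, -1.14 to -0.33 for Cd79a, -0.36 to 0.07 for Cd79b and -0.32 to 0.30 for Ms4a1. Between SBP and sham the 2 calls became 6 with only the 2 groups in the fit, 1 with a pseudocount of 0.5 and 0 with types from marker scores, and 0 to 6 without single mice, with 6 without I/R replicate 1 and 4 without I/R replicate 2. Bank1 in fibroblasts was called in 16 of 22 settings (adjusted p 0.00258 to 0.222) and Ighd in myeloid nuclei in 12 of 19 (0.00716 to 0.147). In the Cd163-led nuclei, where the alternatives were added after the data were seen, the count of 0 became 1 between SBP and sham with only the 2 groups (Ighm, adjusted p 0.00155), and 0 to 1 between SBP and I/R without single mice. The cause of these changes was not tested, apart from fewer mice in the fit.

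In I/R against sham, the 10 calls of the B cell receptor list ranged from 6 to 16 without single mice. The lineage factor list went from 0 to 1 with no filter other than 1 UMI, 1 with marker scores and 3 with at most 1 UMI of a gene per nucleus, and to 0 to 3 without single mice. The 8 calls of the other B cell genes became 5 with only 2 groups, 5 with no filter, 4 with doublets at the expected rate removed, 5 at a Leiden resolution of 0.6 and 4 with marker scores, and 3 to 10 without single mice. The plasma cell list ranged from 2 to 4. The 9 lower pairs of the 7 genes stayed at 6 to 9 without single mice, as fewer pairs passed the filter. The median over the 7 genes of the share of UMIs in B-like nuclei, 74.7%, ranged from 69.5 to 76.1%.

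With the replicate block the 8 calls of the other B cell genes became 5, and no other count moved by over 1.5 times. Between SBP and sham it left 2 calls, with Ighd in myeloid nuclei lost and Bank1 there gained. Mice with the same replicate number did not deviate together (correlations of -0.32 to 0.30 in the 4 types), so the numbers give no pairing.

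B-like levels depend on how B-like nuclei are picked: Bank1 came to 139 UMIs per 100 nuclei with marker scores and 187 without the second clustering, and Ighm to 46.4 and 70.7, and what the added nuclei are was not tested. Depth limits Igkc, Cd79a, Cd79b and Ms4a1 outside B-like nuclei, where they had 69, 47, 37 and 72 UMIs in all.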
